A study of Mus musculus with 6 samples.

Results

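The DEAD and DEAH box proteins are the largest family of RNA helicases, enzymes that use ATP to unwind RNA or to pull proteins off it, and they are named after a conserved stretch of amino acids in the helicase core. They serve nearly every step in the life of an RNA: ribosome assembly in the nucleolus, pre-mRNA splicing, export of mRNA from the nucleus, translation, storage in granules and decay. Most are weak enzymes on their own and work with cofactors, such as G-patch proteins for several DEAH helicases and MIF4G-domain proteins for several DEAD helicases. Some members are testis enriched, among them Ddx25 and Ddx43, and the helicases of cytoplasmic germ cell granules handle stored transcripts there.

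The genes described here are those with a single annotated symbol that starts with Ddx or Dhx and a digit, without Ddx5, Ddx17, Ddx4, Ddx58, Dhx58 and Ddx3y. This rule used gene names only and no measured value. It gave 46 genes with 97 probe sets, out of 18193 genes with 1 symbol and 45037 probe sets that were not controls. Of these, 45 genes (30 Ddx and 15 Dhx genes) with 92 probe sets were bright enough to be tested, among 14885 genes and 33778 probe sets in all. The other 5 probe sets were under the limit on dim signals, a mean log2 value of 3.62. They were the only probe set of Ddx43, with a mean of 1.96, and a further probe set each of Ddx39b, Ddx6, Ddx60 and Dhx9, genes that kept brighter ones. A gene is described through its brightest tested probe set unless another is named, and 29 of the 45 had several.

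RNA came from cells of the mouse line GC1-Spg, an established line of spermatogonial origin (spermatogonia are the dividing germ cells at the base of the seminiferous tubule), grown in serum-supplemented DMEM. One group of 3 biological replicates was transfected with 100 nM scrambled siRNA and the other group of 3 with 100 nM siRNA against mrhl, a nuclear noncoding RNA known to bind the helicase Ddx5, and both were harvested at 44 h. All 6 cultures were of this single line and all received siRNA, and no untransfected culture was among them. Each replicate was read on its own 1-colour Affymetrix array. The comparison asks whether RNAs of the other helicases of the family differed when mrhl was silenced. No value for mrhl itself was read here, so the silencing was not checked on these arrays. In RNA from whole cultures, fewer cells that make a transcript and less of it per cell cannot be told apart.

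Of the markers of spermatogonia and germ cells, 12 of 14 listed genes were on the array under a single symbol, 9 were tested and 3 lay above the median level of all probe sets, 5.23. These 3 were Uchl1, at a mean of 7.49, Id4, at 6.35, and Gfra1, at 5.91. Ddx4, Dazl and Sohlh1, defining genes of germ cells, were too dim to be tested. Of 7 Sertoli cell markers 6 lay above that median, and of 7 markers of peritubular myoid cells and fibroblasts 5 did. So did 1 of the 3 tested Leydig cell markers and 2 of the 4 tested markers of blood and endothelial cells. Cyp17a1, Ptprc and Pecam1 of these lists were too dim to be tested. The 7 markers of peritubular myoid cells and fibroblasts had a median log2 fold change of 0.31, with 6 of them above 0 and none past an adjusted p of 0.05 in limma. Their part in the results below was not tested. The helicases themselves were well detected through their brightest probe sets, with 42 of the 45 above that median and Ddx23, Ddx25 and Dhx37 below it. Of the 11901 tested genes with a promoter sequence, read in the same way, 8921 lay above it.

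Promoters of the 5 helicase genes whose brightest probe set was lower in all 3 arrays after mrhl siRNA than in all 3 after scrambled siRNA are printed first, to show the start sites of the genes that the values below turn on. Counted over probe sets, 8 of the 92 helicase probe sets (8.70%) lay lower in this way, and 5.82% of all. Counted over brightest probe sets, 5 of 45 helicase genes lay lower, 11.1% against 6.13% of all genes, and 0 lay higher, against 2.3% of all genes. The sequences are RefSeq's, build GRCm38.p6, from 100 bases before to 30 bases after the annotated start, on the strand of the gene. Capitals mark the ETS core CGGAAG or its reverse complement CTTCCG, a motif known as part of the binding site of ETS family transcription factors and common in promoters of widely expressed genes. It was chosen after these sequences and the values had been seen. Ddx1 lies at chr12:13249145-13249274 on the minus strand, Ddx10 at chr9:53248083-53248212 on the minus strand, Ddx27 at chr2:167015213-167015342 on the plus strand, Ddx52 at chr11:83941990-83942119 on the plus strand and Dhx40 at chr11:86807631-86807760 on the minus strand.
Ddx1: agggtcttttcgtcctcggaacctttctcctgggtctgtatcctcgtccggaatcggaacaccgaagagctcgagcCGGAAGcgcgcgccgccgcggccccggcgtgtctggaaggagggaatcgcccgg
Ddx10: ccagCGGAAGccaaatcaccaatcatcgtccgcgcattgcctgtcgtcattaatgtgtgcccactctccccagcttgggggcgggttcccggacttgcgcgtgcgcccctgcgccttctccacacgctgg
Ddx27: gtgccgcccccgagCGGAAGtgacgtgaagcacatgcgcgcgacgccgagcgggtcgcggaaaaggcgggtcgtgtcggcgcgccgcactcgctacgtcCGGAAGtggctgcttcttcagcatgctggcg
Ddx52: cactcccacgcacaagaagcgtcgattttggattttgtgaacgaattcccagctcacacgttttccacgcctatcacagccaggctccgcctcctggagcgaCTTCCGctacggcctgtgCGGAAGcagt
Dhx40: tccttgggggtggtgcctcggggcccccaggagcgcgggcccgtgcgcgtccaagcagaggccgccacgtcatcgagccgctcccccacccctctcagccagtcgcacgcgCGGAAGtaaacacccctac

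The ETS core stood once in the windows of Ddx1, Ddx10 and Dhx40 and 2 times in those of Ddx27 and Ddx52. It was not limited to these genes. Promoter sequences matched 41 of the 46 helicase genes (all but Ddx11, Ddx23, Ddx39a, Ddx6 and Dhx38), and 24 of the 41 held the core in this window of 130 bases on either strand. Of the 40 that were also tested, 24 held it, 60.0%. Among all 11901 tested genes with a promoter sequence the share was 19.1%, among the 8921 of them above the median level 23.1%, and among all 32851 promoters 10.9%. By role, 11 of 16 helicases of ribosome synthesis and 6 of 8 of splicing held the core. The share of a GC box, GGGCGG or its complement, was 47.5% of the 40 helicase genes and 47.9% of all tested genes, and such a box can share its last bases with an ETS core. For the CCAAT box (CCAAT on either strand) the counts were 10 of 40 and 24.5%, for the E-box CACGTG 5.0% and 5.52%, and for TATAAA 2.5% and 4.1%. The 24 genes with the ETS core had a median log2 fold change of −0.08 and the 16 without it −0.07. These matches describe the letters in the windows and were not tested against any binding data.

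One array stood apart for the helicases before any comparison of the groups. The array of scrambled siRNA replicate 2 was the highest of the 6 for 42 of the 92 helicase probe sets, 45.7%, against 6755 of all 33778 probe sets tested. Its median deviation from the mean of the 6 arrays was 0.14 for helicase probe sets and 0.04 for all. Probe sets with a suffix that marks sequence shared between transcripts or genes (_a, _s or _x) had that array highest in 15 of 27, and the others in 27 of 65. Read through brightest probe sets, it was highest for 19 of 45 helicase genes, 42.2% against 20.7% of all genes, and mrhl siRNA replicate 2 was highest for 0 of 45, against 11.0% of all genes. Family counts at an unadjusted p, of probe sets without overlap and of genes below 0 are therefore given with and without scrambled siRNA replicate 2. So is the family median. The counts of genes without overlap, of intervals, of fold change sizes and by role use all 6 arrays. Leaving out scrambled siRNA replicate 2 moved the fold change by over 1.5 times or turned its sign for 16 of the 30 helicases named by the rule for full values. The values without this array stand beside those genes. Leaving out any other single array did so for 13 to 16 of the 30, since most of these values lay close to 0.

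Across the family the differences between the groups were small and none passed the test. Of 92 helicase probe sets, 0 passed an adjusted p of 0.05 in limma, where the share over all 33778 probe sets was also 0%, and the smallest adjusted p of a helicase was 0.965. At an unadjusted p under 0.05 (limma), 2 were lower after mrhl siRNA, 2.17% against 2.18% of all, and 1 was higher, 1.09% against 1.26%. With the replicate number as a block, again 0 passed, with a share of 0% over all probe sets and a smallest adjusted p of 0.487 in limma, while 5 were lower and 1 was higher at an unadjusted p under 0.05. Those counts of 5.43% and 1.09% stand against 6.23% and 3.87% of all probe sets, so neither fit set the helicases above the background. Without scrambled siRNA replicate 2, the fit without the block left 1 helicase probe set at an unadjusted p under 0.05, where the share over all probe sets was 3.0%.

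Over the 92 probe sets the count without overlap was 8 lower, 8.70% against 5.82% of all probe sets, and 1 higher, 1.09% against 2.58%. Without scrambled siRNA replicate 2 the groups of 2 and 3 arrays were apart for 12 probe sets lower and 10 higher, where the shares over all probe sets were 10.4% and 6.03%. Without mrhl siRNA replicate 2 they were apart for 8 lower and 4 higher, with shares of 8.02% and 5.07% over all probe sets. Leaving out any other single array gave 15 to 19 lower and 1 or 2 higher. The imbalance of 8 to 1 among these helicases was thus not seen without scrambled siRNA replicate 2 and was smaller without mrhl siRNA replicate 2. A smaller number of arrays lets more probe sets stand apart.

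**Figure D1:**
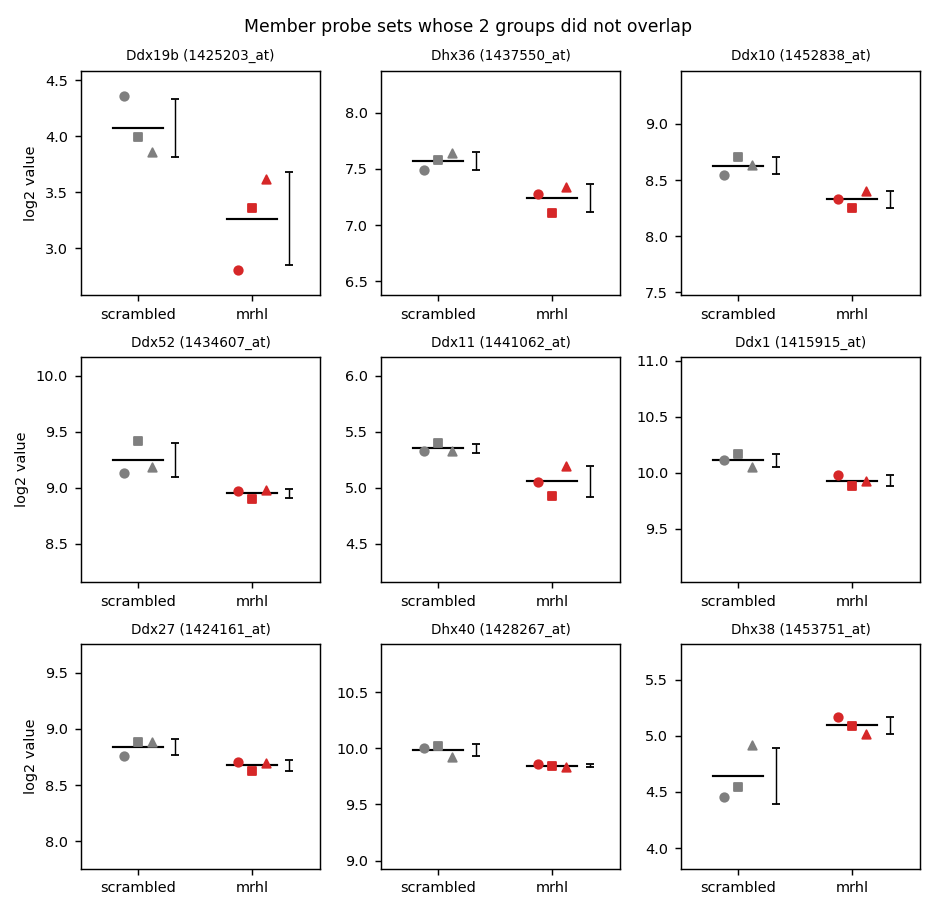
Log2 values of the 9 tested helicase probe sets whose groups did not overlap, 8 lower and 1 higher after mrhl siRNA. Grey symbols are scrambled siRNA and red symbols mrhl siRNA, with circle, square and triangle for replicates 1, 2 and 3, horizontal lines for group means and vertical bars for the mean ± SD (n = 3). The widest gaps between means are those of Ddx19b, at −0.81, and Dhx38, at 0.45, both dim, and all panels have the same height in log2 units.

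The size of the differences was also limited in these arrays. The log2 fold change (mrhl siRNA minus scrambled siRNA) of 40 of the 45 genes lay within 0.2 of 0, 88.9% against 67.2% of all genes tested. In the fit without the block, the 95% interval lay within a log2 fold change of 1 on either side of 0 for 44 of 45 genes. The exception was Ddx25, whose interval ran from −1.10 to 0.03 without the block and from −0.83 to −0.24 with it. Without the block, the interval lay within 0.5 for 31 genes. The corresponding shares were 97.8% against 91.2%, and 68.9% against 32.5%, of all genes. Over the 92 helicase probe sets they were 93.5% within 1 and 56.5% within 0.5. A difference of 2-fold in either direction thus lay outside the interval for those 44 genes. None of these shares was matched for level, and most helicase genes lay above the median level of all probe sets. The number of arrays limits the precision, with a median standard error over the helicase genes of 0.151 without the block and 0.115 with it.

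More helicases lay below 0 than above it. Of the 45 genes, 29 had a negative fold change, 64.4% against 57.9% of all genes, and the median was −0.06 against −0.04. Without scrambled siRNA replicate 2, 33 were below 0 and the median was −0.05. After quantile normalization, 28 were below 0 and the median was −0.03, and without both arrays of number 2 it was also −0.03. In those settings the median over all probe sets was −0.0341, −0.00987 and −0.0102 in turn, and the share of all genes below 0 was not counted. Within replicate numbers, the median difference of the helicases was −0.03 for number 1, −0.14 for number 2 and −0.06 for number 3, and over all genes −0.02, −0.08 and −0.03. In all 3 pairs 14 helicases were lower, 31.1% against 26.1% of all genes, and 4 were higher, 8.89% against 14.5%. The 4 were Ddx23, Ddx39b and Ddx41, of the 10 splicing helicases, and Ddx56, of ribosome synthesis. The 14 included 8 of the 16 helicases of ribosome synthesis and the splicing helicase Dhx15. Some of these differences were close to 0 on either side. They were −0.0015 for Ddx18 within number 1, and −0.0022 for Ddx24 and 0.0065 for Ddx23 within number 3.

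**Figure D2:**
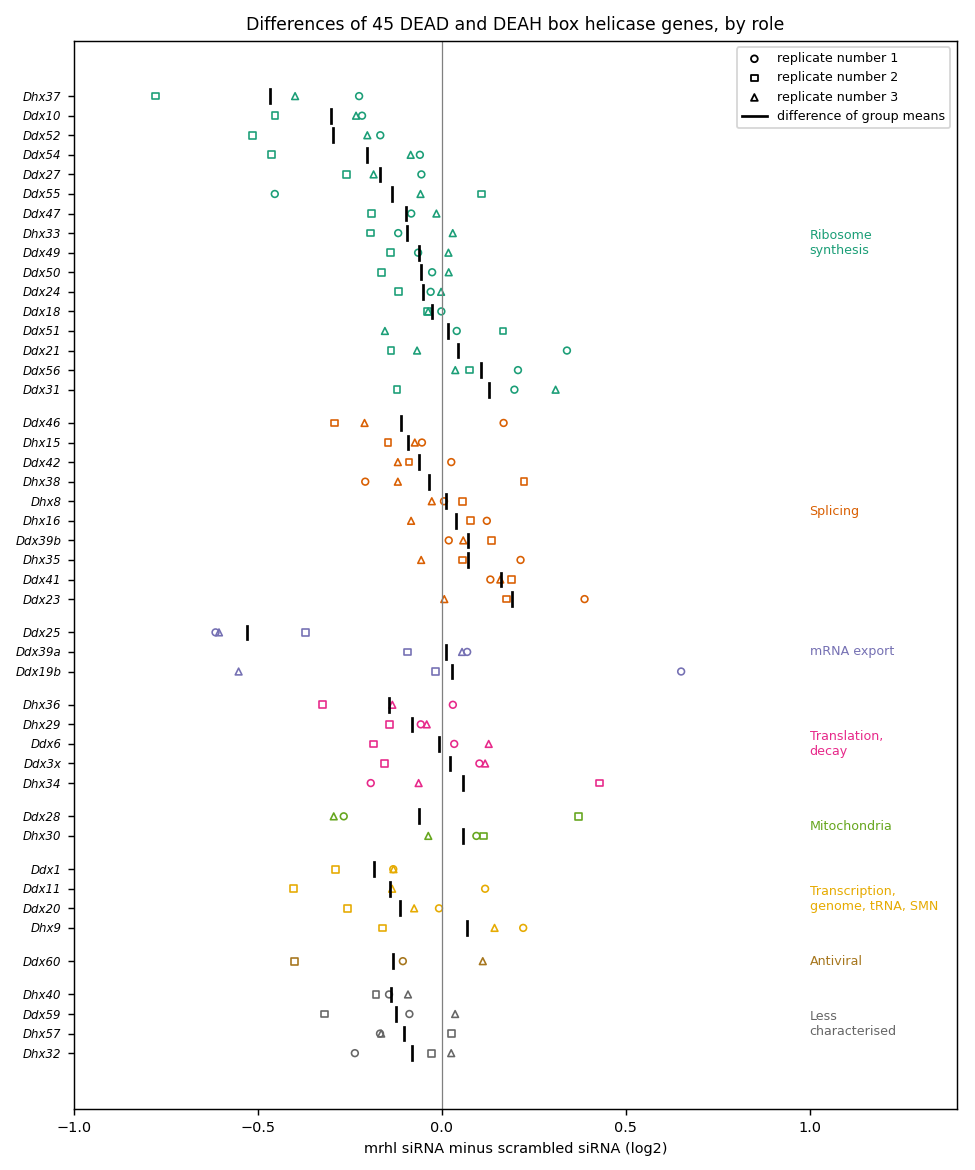
Difference of each of 45 helicase genes, grouped by role, as mrhl siRNA minus scrambled siRNA on the log2 scale (horizontal axis). Open symbols are the differences within replicate numbers 1, 2 and 3 and the black bar is the difference of the group means: Dhx37 and Ddx25 lie farthest below 0 at −0.47 and −0.53, and 40 of the 45 bars lie within 0.2 of 0.

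**Figure D3:**
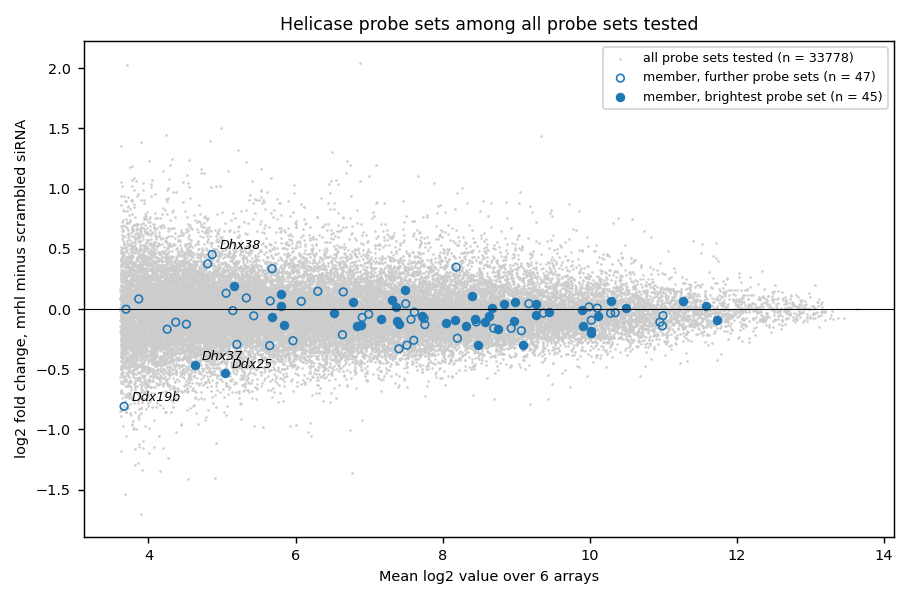
Log2 fold change against the mean log2 value over the 6 arrays for all 33778 probe sets tested (grey) and the 92 helicase probe sets (blue, filled for the brightest of each of 45 genes). The helicases lie inside the cloud of all probe sets, and the 4 named points, at −0.81 for Ddx19b, −0.53 for Ddx25, −0.47 for Dhx37 and 0.45 for Dhx38, all sit at mean values near or under 5.

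Ribosome synthesis is the largest group. These 16 nucleolar helicases remodel pre-ribosomes, often by releasing snoRNAs or letting the rRNA fold, and 12 of the 16 lay below 0 with a median log2 fold change of −0.08. None passed the adjusted p in limma, and 3 of the 16 did not overlap between the groups, all lower, 18.8% against 6.13% of all genes. No set of helicases was tested as a group. The first is Ddx10, the relative of a yeast helicase needed for the small ribosomal subunit. Its values were 8.55, 8.70 and 8.64 after scrambled siRNA and 8.33, 8.25 and 8.40 after mrhl siRNA. All 3 treated arrays were below all 3 controls, with means of 8.63 ± 0.079 and 8.33 ± 0.078 (SD, n = 3 each). The log2 fold change was −0.30 (SE 0.135), with an adjusted p of 0.965 in limma and 0.492 with the replicate block. Its dimmer probe set overlapped between the groups, with a log2 fold change of −0.04.

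Ddx52, also of the small subunit pathway, read 9.13, 9.42 and 9.19 after scrambled siRNA and 8.97, 8.90 and 8.98 after mrhl siRNA. The 3 treated arrays lay within a narrow band under the controls, of which replicate 2 was the highest. This gave a log2 fold change of −0.29 (SE 0.143, adjusted p 0.965, limma). Its other probe set gave −0.16 and overlapped. Ddx27, a helicase of large subunit maturation, read 8.76, 8.88 and 8.89 against 8.70, 8.62 and 8.70, a log2 fold change of −0.17 (SE 0.131, adjusted p 0.965, limma). Here control replicate 1 was only slightly above the treated arrays, and the dimmer probe set, at −0.06, overlapped.

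Dhx37, the DEAH helicase that releases the U3 snoRNA from the small subunit precursor, had the lowest fold change of this group. It read 4.91, 5.11 and 4.57 after scrambled siRNA and 4.68, 4.33 and 4.17 after mrhl siRNA, and the groups overlapped because treated replicate 1 exceeded control replicate 3. The log2 fold change was −0.47 (SE 0.205), a fold of 0.723, with an adjusted p of 0.965 in limma and 0.487 with the replicate block. The difference was negative within each replicate number and widest within number 2, and the single probe set of this gene was dim. With an offset of 16 before the log the fold change was −0.28 on the log2 scale. Ddx54, a helicase of the large subunit pathway that also binds nuclear receptors, read 9.90, 10.29 and 10.17 against 9.84, 9.83 and 10.09. Its log2 fold change was −0.20 (SE 0.165) through an _x probe set, which can pick up related transcripts, and 0.04 through the plain probe set of the same gene. Through the _x probe set it was −0.12 without scrambled siRNA replicate 2 and −0.31 without scrambled siRNA replicate 1.

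The other helicases of this group lay closer to 0. Ddx21, which links RNA polymerase I transcription with rRNA processing, had 8.63, 9.10 and 8.69 in the controls and 8.98, 8.97 and 8.62 in the treated arrays. The arrays of both groups were interleaved, and the log2 fold change was 0.04 (SE 0.187), or 0.19 without scrambled siRNA replicate 2. Its close paralog Ddx50 read 10.07, 10.16 and 10.22 against 10.04, 9.99 and 10.24 and gave −0.06 (SE 0.142). On the positive side Ddx31 gave 0.13 (SE 0.172; 0.28 without scrambled siRNA replicate 2) and Ddx56, of large subunit assembly, 0.11 (SE 0.148), and both overlapped between the groups. Of the remaining 7, Ddx18, Ddx24, Ddx47, Ddx49, Ddx55 and Dhx33 were below 0, between −0.14 for Ddx55 and −0.03 for Ddx18, and Ddx51 was at 0.02.

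The 46 listed partners of ribosome synthesis, such as box C/D snoRNP proteins and processome subunits, were all tested. Of these, 0 passed the adjusted p in limma and 0 had an unadjusted p under 0.05, 17 lay above 0 and 29 below, and the median was −0.07. The smallest p-values belonged to Utp20, at −0.29 (SE 0.168), and Utp6, at −0.21 (SE 0.134), both processome proteins of the small subunit. Utp6 and Wdr3 were the 2 whose groups did not overlap, both lower, 4.35% against 6.13% of all genes. With the replicate block 1 partner, Wdr36, was lower at an unadjusted p under 0.05, where the share over all genes was 5.89%, and its fold change of −0.33 had an adjusted p of 0.492 in limma.

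Splicing helicases drive the spliceosome through its rearrangements, and 6 of the 10 in this group lay above 0, with a median of 0.03. None was past the adjusted p in limma, and no brightest probe set was free of overlap. Ddx41, a helicase found with late spliceosomes and also described as a sensor of DNA, read 7.52, 7.13 and 7.56 after scrambled siRNA and 7.65, 7.32 and 7.72 after mrhl siRNA. Each treated array exceeded the control of the same number, by 0.13, 0.19 and 0.16, while both arrays of number 2 were low. The log2 fold change was 0.16, with an SE of 0.184 without the block and 0.105 with it, and an adjusted p of 0.965 and 0.590 in limma. It was 0.02 without scrambled siRNA replicate 2, a fit that kept the low treated array of number 2 without its control. The differences of 0.13 and 0.16 within numbers 1 and 3 do not use that array. Ddx23, which joins the tri-snRNP to the spliceosome, read 4.54, 5.24 and 5.44 against 4.92, 5.41 and 5.45. Its log2 fold change of 0.19 (SE 0.268) was widest within number 1, where both arrays were low.

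Ddx39b, which loads the U2 snRNP at the branch site and then joins the export complex TREX, was among the brighter members at 11.41, 11.09 and 11.22 after scrambled siRNA and 11.43, 11.22 and 11.28 after mrhl siRNA. Treated arrays lay inside or just above the range of the controls, and the log2 fold change was 0.07 (SE 0.151), or −0.0067 without scrambled siRNA replicate 2. Its _x probe sets gave −0.05 and −0.09, so the direction depended on the probe set. Dhx15, which takes apart the intron lariat spliceosome, read 11.67, 11.89 and 11.76 against 11.61, 11.74 and 11.69, a log2 fold change of −0.09 (SE 0.137), or −0.03 without scrambled siRNA replicate 2, and its other probe set gave −0.11. Each treated array was below its control, yet the groups overlapped. Dhx35 gave 0.07 (SE 0.154; 0.01 without scrambled siRNA replicate 2), Dhx16 0.04, Dhx8, which releases the spliced mRNA, 0.01, Ddx42 −0.06 and Ddx46, a helicase of early U2 recruitment, −0.11.

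Dhx38, the helicase that prepares the spliceosome for the second step of splicing, had the single one of the 92 tested helicase probe sets that was higher in all 3 treated arrays. A probe set of Ddx39b that was too dim to be tested was also higher in all 3, with means of 2.65 and 2.91. The probe set of Dhx38, 1453751_at, read 4.46, 4.54 and 4.92 after scrambled siRNA and 5.17, 5.09 and 5.02 after mrhl siRNA. Means were 4.64 ± 0.247 and 5.09 ± 0.077 (SD, n = 3 each), and the log2 fold change was 0.45 (SE 0.167, adjusted p 0.965, limma). The brighter probe set of the gene, an _s probe set, read 6.84, 6.47 and 6.29 against 6.63, 6.70 and 6.17 and gave −0.04 (SE 0.212; −0.07 without scrambled siRNA replicate 2), so the 2 probe sets of Dhx38 differed in sign. Partners in the spliceosome numbered 31, of which 0 passed the adjusted p in limma and 0 had an unadjusted p under 0.05. They lay 14 above and 17 below 0 with a median of −0.02, and 4 of them, Cdc5l, Crnkl1, Plrg1 and Slu7, had groups that did not overlap, all lower, 12.9% against 6.13% of all genes. Cdc5l, a core protein of the Prp19 complex, gave −0.24 (SE 0.136) and Crnkl1 −0.22 (SE 0.137).

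Export of mRNA was represented by 3 genes. Ddx25, the gonadotropin-regulated testis helicase of germ and Leydig cells that exports and stores mRNAs of spermatogenesis, had the lowest fold change of all 45 genes read through their brightest probe set. Its values were 5.58, 5.37 and 4.96 after scrambled siRNA and 4.96, 5.0 and 4.35 after mrhl siRNA. Treated arrays were lower than the controls of the same number by 0.62, 0.37 and 0.61, but replicate 3 was low in both groups and the groups overlapped. The log2 fold change was −0.53, a fold of 0.692, with an SE of 0.242 without the block and 0.116 with it, and an adjusted p of 0.965 and 0.487 in limma. Without mrhl siRNA replicate 3 it was −0.32, and with an offset of 16 before the log it was −0.35. The gene has a single, dim probe set, so no second probe set bears on this value.

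Ddx19b, which strips export factors from mRNA at the nuclear pore, showed opposite values in its probe sets. Its dimmest tested probe set, 1425203_at, read 4.36, 3.996 and 3.86 after scrambled siRNA and 2.81, 3.36 and 3.62 after mrhl siRNA. All 3 treated arrays were lower, and they lay around or under the limit of 3.62 for dim signals. Its log2 fold change was −0.81 (SE 0.243, adjusted p 0.965, limma), the lowest of the 92 probe sets. The brightest probe set read 5.29, 5.85 and 6.24 against 5.95, 5.83 and 5.69, a log2 fold change of 0.03 (SE 0.245; 0.05 without scrambled siRNA replicate 2), and the remaining one gave 0.08. Ddx19a, a near-identical paralog, was not among the genes with a probe set of their own, so these probe sets could read both. Ddx39a, the paralog of Ddx39b, was at 0.01 (SE 0.140), and its 5 probe sets ran from −0.04 to 0.02. Of 14 tested partners in export and the exon junction complex, 0 passed the adjusted p in limma and 0 had an unadjusted p under 0.05, while 3 lay above 0 and 11 below with a median of −0.09. Thoc2 did not overlap, 7.14% of the list against 6.13% of all genes. Thoc2 and Nup88, of the TREX complex and the nuclear pore, gave −0.16 (SE 0.130) and −0.15 (SE 0.158).

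Helicases of translation, decay and granules numbered 5, with 2 above 0, 3 below and a median of −0.01. Ddx3x, which helps translation of mRNAs with structured leaders, was bright, at 11.41, 11.82 and 11.48 after scrambled siRNA and 11.51, 11.66 and 11.60 after mrhl siRNA. The treated arrays fell inside the range of the controls, and the log2 fold change was 0.02 (SE 0.159), or 0.14 without scrambled siRNA replicate 2. This is an _s probe set that may also read the Y-linked copy Ddx3y. The plain probe sets of Ddx3x gave −0.14 (SE 0.136) and 0.01 (SE 0.176). Dhx29, which helps the ribosome scan structured leaders, gave −0.08 (SE 0.138), and Dhx34, a factor of nonsense-mediated decay, 0.06 (SE 0.167).

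Dhx36, which unwinds G-quadruplexes in RNA and DNA, had 3 probe sets that did not follow one another. The probe set 1437550_at read 7.49, 7.58 and 7.64 after scrambled siRNA and 7.27, 7.11 and 7.34 after mrhl siRNA. It did not overlap, with means of 7.57 ± 0.077 and 7.24 ± 0.121 (SD, n = 3 each) and a difference of −0.33 on the log2 scale (SE 0.140, adjusted p 0.965, limma). The brightest, 1424397_at, read 8.33, 8.48 and 8.35 against 8.36, 8.15 and 8.22 and gave −0.14 (SE 0.138), the same sign with overlap. The third, 1424398_at, read 7.22, 8.29 and 8.52 against 7.71, 8.16 and 9.21 and gave 0.35 (SE 0.457). It ranged over 1.98 log2 units, lowest in both arrays of number 1 and highest in treated replicate 3.

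The same array pattern appeared in Ddx6, the decapping activator and translational repressor of P-bodies. Its brightest probe set was steady, at 9.81, 10.17 and 9.71 after scrambled siRNA and 9.85, 9.99 and 9.84 after mrhl siRNA, a log2 fold change of −0.01 (SE 0.166), or 0.13 without scrambled siRNA replicate 2. The probe set 1424598_at read 5.91, 6.96 and 6.87 against 5.86, 6.22 and 8.07, and 1439122_at read 4.52, 5.80 and 6.21 against 4.79, 5.48 and 7.28. Both were lowest in the 2 arrays of number 1 and highest in treated replicate 3, with ranges of 2.21 and 2.76, the widest of the 92. By contrast the median range over the 6 arrays was 0.476 for helicase probe sets and 0.645 for all, and 10 helicase probe sets, 10.9%, ranged over more than 1, against 19.9% of all. Their fold changes of 0.14 and 0.33 had SEs of 0.575 and 0.676. These arrays give no information on which part of the transcript each probe set reads, and the source of the pattern was not tested.

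**Figure D4:**
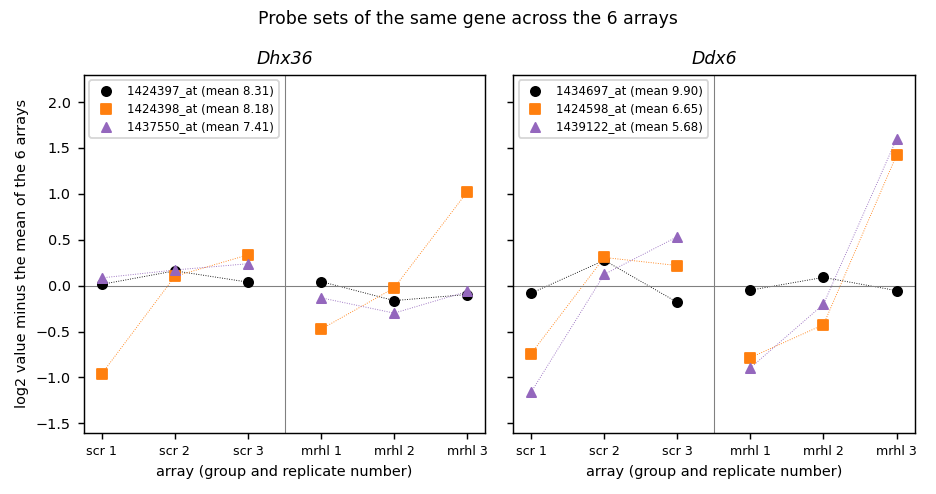
Log2 values of 3 probe sets each of Dhx36 (left) and Ddx6 (right), as the difference from the mean of the 6 arrays, by group and replicate number. The brightest probe sets (black) stay near 0, while 1 of Dhx36 and both dimmer ones of Ddx6 are low in the replicate 1 arrays and high in mrhl siRNA replicate 3, over ranges of 1.98 to 2.76.

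Partners in decay and granules numbered 24 tested genes, of which 0 passed the adjusted p in limma and 0 had an unadjusted p under 0.05, with 10 above 0, 14 below and a median of −0.03. Dcp2, the decapping enzyme, gave −0.45 (SE 0.242), Cnot2, of the deadenylase complex, −0.25 (SE 0.150), and Cnot3, of the same complex, 0.56 (SE 0.390), the widest difference in this list. Groups did not overlap for Cnot2, lower, and for G3bp1, a stress granule protein, higher at 0.07, 4.17% of the list each against 6.13% and 2.3% of all genes. With the replicate block 1 partner, Dcp2, was lower at an unadjusted p under 0.05, where the share over all genes was 5.89%. The adjusted p of Dcp2 was 0.487 in limma.

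The mitochondrial helicases lay on either side of 0. Ddx28, of mitochondrial ribosome assembly, gave −0.06 (SE 0.188), from differences of −0.27, 0.37 and −0.29 within the replicate numbers, and −0.20 without scrambled siRNA replicate 2. Dhx30, also of that pathway, gave 0.06 (SE 0.144; −0.01 without scrambled siRNA replicate 2), while its _x probe sets gave −0.24 and −0.30 and a dimmer plain probe set 0.15.

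Of the 4 helicases with roles in transcription, genome upkeep, tRNA or the SMN complex, 3 lay below 0 and the median was −0.13. Ddx1, a subunit of the tRNA ligase complex, read 10.11, 10.17 and 10.06 after scrambled siRNA and 9.98, 9.88 and 9.92 after mrhl siRNA. All treated arrays were below all controls with little spread, at 10.11 ± 0.058 and 9.93 ± 0.048 (SD, n = 3 each). Ddx1 thus had a log2 fold change of −0.18 (SE 0.130, adjusted p 0.965, limma), and its _x probe set gave −0.16. Ddx20, also called gemin3, of the complex that assembles snRNPs, read 8.13, 8.05 and 8.11 against 8.12, 7.79 and 8.04. Only treated replicate 2 was clearly low, and the log2 fold change was −0.11 (SE 0.147), or −0.02 without that array. Ddx11, a DNA helicase of sister chromatid cohesion, gave −0.14 (SE 0.164) with overlap, and −0.02 without scrambled siRNA replicate 2. A dimmer probe set, 1441062_at, read 5.33, 5.40 and 5.33 against 5.05, 4.93 and 5.20, without overlap, at −0.29 (SE 0.140, adjusted p 0.965, limma).

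Dhx9, also called RNA helicase A, which binds double-stranded RNA and bridges transcription factors with RNA polymerase II, had 10.28, 10.49 and 10.02 in the controls and 10.50, 10.33 and 10.16 in the treated arrays. The values were interleaved. Dhx9 had a log2 fold change of 0.07 (SE 0.177), or 0.18 without scrambled siRNA replicate 2, and its second tested probe set gave 0.04. Ddx60, an interferon-induced cofactor of antiviral RNA sensing and the one member listed under that role, read 6.46, 7.31 and 7.11 against 6.36, 6.91 and 7.22. It was low in both arrays of number 1, and the log2 fold change was −0.13, with an SE of 0.293 without the block and 0.140 with it. It was 0.04 without scrambled siRNA replicate 2.

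The 4 less characterised helicases that were tested all lay below 0, with a median of −0.11. Dhx40 had the tightest groups, at 10.00, 10.02 and 9.93 after scrambled siRNA and 9.86, 9.84 and 9.83 after mrhl siRNA, with SDs of 0.051 and 0.015 (n = 3 each). It did not overlap, and the log2 fold change was −0.14 (SE 0.128, adjusted p 0.965, limma). Ddx59, Dhx57 and Dhx32 gave −0.12, −0.10 and −0.08 and overlapped. Ddx43, a testis and tumour antigen helicase, read 1.26, 2.90 and 2.88 against 3.03, 1.99 and −0.29, all under the limit for dim signals, and was not tested.

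Agreement between probe sets limited how far a value for a gene could be read. Over the 29 genes with several tested probe sets, the median gap between the lowest and the highest fold change of a gene was 0.16. In 12 genes all probe sets lay below 0, in 2 (Ddx23 and Dhx9) all above, and in 15 the signs were mixed. Gaps of 0.5 or more occurred in Ddx19b at 0.89, Dhx36 at 0.68 and Ddx50 at 0.59. In Ddx50 the wide value came from its dimmest probe set, at 0.37 (SE 0.399). That probe set was lowest in the arrays of number 1, at 3.69 in the control and 4.59 in the treated array. Of the 5 genes whose brightest probe set did not overlap, Ddx1, Ddx10, Ddx27 and Ddx52 had a further probe set of the same sign that did overlap, and Dhx40 had none.

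**Figure D5:**
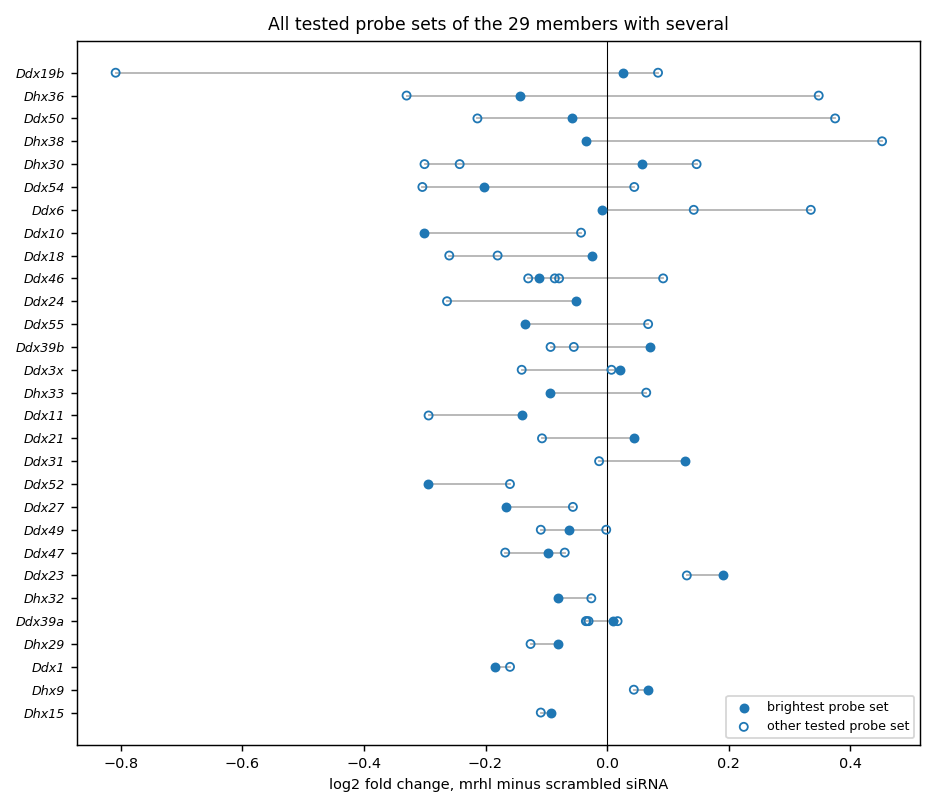
Log2 fold changes of all tested probe sets of the 29 helicase genes with several, ordered by the gap between lowest and highest (grey line), with the brightest probe set filled. The gap reaches 0.89 for Ddx19b and 0.68 for Dhx36, and its median over the genes is 0.159.

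Helicases with other names and the cofactors of the family gave similar counts. Of 19 tested RNA helicases without a Ddx or Dhx symbol (Eif4a3 and Tdrd9 were too dim), 0 passed the adjusted p in limma and 0 had an unadjusted p under 0.05, 8 lay above 0 and 11 below, and the median was −0.02. The smallest p-values were those of Ythdc2, a DEAH-related helicase required in meiosis, at −0.42 (SE 0.204), and Mov10l1, a piRNA pathway helicase of germ cells, at −0.47 (SE 0.305). With the replicate block Ythdc2 alone was lower at an unadjusted p under 0.05, where the share over all genes was 5.89%. Its adjusted p was 0.487 in limma. Znfx1 was the one in this list without overlap, higher at 0.19, 5.26% against 2.3% of all genes. Of 24 G-patch and MIF4G cofactors, 0 passed the adjusted p in limma and 0 had an unadjusted p under 0.05, with 11 above 0, 13 below and a median of −0.02. Nkrf, a partner of Dhx15, gave −0.26 (SE 0.154) and Gpatch8 0.24 (SE 0.162).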

How the data were processed

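Total RNA of 6 cultures was hybridised as biotin-labelled cRNA to 1-colour Affymetrix arrays, and the titles of the samples gave the groups and replicate numbers. The deposited values are log2 expression values, 1 per probe set and array, a scale read from their range. GCOS and PLIER were used per the submitters' processing notes. Of their versions, background correction and normalization, nothing is stated in the sources used here. Array medians differed by at most 0.11, and the values were used as deposited. The planned offset of 16 for linear values was not needed and is an alternative.

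From 45101 rows, 64 control rows were left out, and 34945 of the other 45037 probe sets were paired with 1 symbol, 932 with several and 9160 not listed. Probe sets under the 25th percentile of the mean, 3.62, were left out. The fit was made in limma 3.58.1 (R 4.3.3; lmFit, then eBayes), and p-values were adjusted by Benjamini-Hochberg over the 33778 probe sets, with a threshold of 0.05. Simulated data were used to check the fit. Figures were drawn with matplotlib 3.10.9. Labels call the replicates biological. Where they were not separate cultures, p-values measure only the spread between these arrays. No test was made over the helicases as a list.

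The replicate numbers are shared by the groups and were checked by correlating deviations from group means. Equal numbers correlated at 0.534, 0.201 and 0.567, above the limit of 0.1, and unequal numbers from −0.518 to 0.0684, so the numbers were read as pairs, as the 3 independent experiments of the design text allow.

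The named helicases were the 8 with the smallest unadjusted p on each side of 0, the 2 smallest in each role, probe sets with an unadjusted p under 0.05, genes whose probe sets differed by 0.5 or more, and Ddx1, Ddx3x, Ddx6, Ddx20, Ddx21, Ddx25, Ddx39b, Dhx9, Dhx15 and Dhx36, plus the 2 smallest of each partner list. Probe sets that did not overlap, other genes given with a fold change (Wdr36, Cnot3, G3bp1 and Znfx1 among them), and the ETS core were chosen after their values or sequences were seen. Members, roles and lists were chosen with earlier results of these data known. Alternatives were other scalings, filters, an offset, the replicate block, other variance models, array weights, the mean of the probe sets, no _x or _s probe sets, and each array or replicate number left out.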

Additional observations from a re-analysis of the deposited data

How the results depend on the processing

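No helicase probe set passed an adjusted p of 0.05 (limma) under any alternative, with the replicate block (0 calls) or without it. The block combined with a trended, robust variance model was added after seeing the data: it called 2 of all 33778 probe sets and 0 helicases. The block changed no call. It changed the counts at an unadjusted p of the helicases, of 3 partner lists and over all probe sets. The count of markers of peritubular myoid cells and fibroblasts at an unadjusted p also changed. The number of helicase genes below 0 ran from 25 to 35 when arrays were left out, and their median from −0.07 to −0.03. Over all probe sets the median then ran from −0.0596 to −0.0085.

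The 3 probe sets at an unadjusted p under 0.05 became 5 with the offset of 16, 6 with the replicate block and 9 with the block and the trended, robust model. Over all probe sets the share was 3.44% in the main fit and 3.29%, 10.1% and 13.1% in those settings, in turn. The helicase count ran from 0 (without both arrays of number 1 or of number 2) to 4, and to 1 without scrambled siRNA replicate 1 or 2 or mrhl siRNA replicate 2. With arrays left out the share over all probe sets ran from 1.72% to 7.12%. The 1 probe set higher without overlap became 2 with array medians set to 0, 2 without a filter, 0 with the filter at the median level and 3 with quantile normalization, and 1 to 14 with arrays left out. Over all probe sets the shares higher were 2.4%, 2.96%, 2.3% and 2.96% in turn, and 5.07% to 12.1% with arrays left out. The 14 arose without both arrays of number 2, where 9.75% of all probe sets lay higher. The 8 lower became 6 under each of array medians set to 0, quantile normalization and the filter at the median level, and 8 to 32 with arrays left out. Over all probe sets the shares lower were 6.66%, 6.23% and 6.23% in turn, and 8.02% to 21.6% with arrays left out. The 32 arose without both arrays of number 1, where 21.1% of all probe sets lay lower. Fewer arrays overlap less by construction.

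Signs turned in 17 of 42 named genes, none of them called. Array weights gave −0.0696 for Ddx19b, 0.0315 for Ddx6 and 0.0852 for Dhx38. Averaging the probe sets of each gene gave −0.23 for Ddx19b, −0.0311 for Ddx21, −0.0257 for Ddx39b, −0.0375 for Ddx3x, 0.0346 for Ddx50, 0.16 for Ddx6, −0.0848 for Dhx30, 0.21 for Dhx38 and 0.34 for Thoc2. Without _x and _s probe sets, Ddx3x gave −0.14, Ddx54 0.0446 and Dhx38 0.45, since another probe set was read. Ddx6 gave 0.0029 with array medians at 0 and 0.0176 after quantile normalization. With arrays left out, values ran from −0.29 to 0.32 for Ddx19b, −0.10 to 0.19 for Ddx21, −0.0775 to 0.37 for Ddx23, −0.28 to 0.064 for Ddx28, −0.0067 to 0.16 for Ddx39b, −0.0573 to 0.14 for Ddx3x, −0.20 to 0.012 for Ddx59, −0.10 to 0.13 for Ddx6, −0.38 to 0.10 for Ddx60, −0.0132 to 0.10 for Dhx30, −0.0337 to 0.14 for Dhx35, −0.16 to 0.13 for Dhx38, −0.0557 to 0.18 for Dhx9 and −0.74 to 0.0472 for Mov10l1. For these genes the direction is not settled, and the cause was not tested. The other 25 named genes kept their sign under all alternatives.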
